A study of Oryza sativa with 18 samples.

Results

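The genes described here are the rice auxin response factors (ARFs) whose transcripts carry a target site of the microRNAs miR160 or miR167. Target sites were not checked here. As listed, there are 8 such genes, all found among the 47919 coding genes of the count table. They were chosen by gene identifier. They were kept apart by microRNA, with ARF6, ARF12, ARF17 and ARF25 as targets of miR167 and ARF8, ARF10, ARF18 and ARF22 as targets of miR160. All 8 passed the filter on low counts in every comparison, with 42 to 12295 counts per gene and library.

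Auxin response factors are transcription factors that bind auxin response elements in promoters and switch auxin-responsive genes on or off. When auxin is low, Aux/IAA proteins hold the activating ARFs silent. Auxin brings Aux/IAA proteins to TIR1/AFB receptors, which leads to their breakdown and frees the ARFs. Transcripts of some ARFs are in addition cleaved by argonaute proteins loaded with a matching microRNA. In Arabidopsis, the ARFs under miR167 are ARF6 and ARF8, activators needed for stamen filament growth, anther opening and gynoecium maturation. Those under miR160 in Arabidopsis are ARF10, ARF16 and ARF17, which act mainly as repressors, and ARF17 is needed there for the pollen wall. The rice numbers do not follow the Arabidopsis numbers, so rice ARF8 and rice ARF17 are not the counterparts of the Arabidopsis genes of the same name. ARF numbers also differ between published rice lists, so each gene is identified by its locus below.

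The samples were whole young panicles of Wuxiang S (WXS), a photo-thermosensitive genic male sterile rice line. Each library came from 1 of 6 groups, with 3 biological replicates in each. Panicles were taken when pollen mother cells formed (P2), at their meiosis (P3) and when microspores formed (P4). All groups share the WXS genotype. The fertile groups, WXS (F), named FP2, FP3 and FP4, had been moved at a panicle length of about 1 cm into a climate incubator with 12 h light and 12 h dark at about 21 °C for 3 to 4 weeks. The sterile groups, WXS (S), named SP2, SP3 and SP4, stayed in the summer field, at daily means above 24 °C and days longer than 12 h, and formed no pollen. Fertility, temperature, day length and the place of growth changed together, so their shares in any F against S difference cannot be told apart. In bulk panicles, fewer cells of a type and less RNA per cell cannot be told apart either.

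Library totals lay between 30577833 and 52222861 counts. SP3 replicate 2 was the shallowest library, yet counts were found for 34782 genes in it, against 28044 to 29014 in the other SP3 libraries, 34338 to 35760 in the FP4 libraries and 27770 to 31587 in all others, so results that rest on SP3 are also given without it. The panicle label was checked on summed marker levels. All 10 floral organ genes of the list were found in all groups, at 521.3 to 1327 counts per 1000000 scaled counts of the library (CPM) in sum. Of 9 tapetum genes, the tapetum being the layer that feeds the pollen, all were found in 5 groups, and RTS alone was at 0 in all SP2 libraries. Their sum reached 1975 to 2117 CPM in FP4, against 213.9 to 237.9 CPM in SP4, with 6 called higher and 2 lower. Of all genes tested at P4, 28.2% were called higher in F and 24.4% lower. C6 was at 950 CPM in FP4 and 3.46 CPM in SP4, whereas the tapetum regulators TDR (36.4 CPM in FP4, 92.8 CPM in SP4) and TIP2 (10.9 CPM in FP4, 71.2 CPM in SP4) were lower. The part of these shifts in the ARF results was not tested.

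Per gene length, the miR167 targets were the more abundant group. In every group of libraries all 4 of them averaged above all 4 miR160 targets in FPKM, the authors' value scaled for gene length and depth. ARF17 (LOC_Os06g46410, chromosome 6) had the highest level in each group, with 41.1 ± 1.53 FPKM in FP2, 42.3 ± 1.99 in SP2, 37.6 ± 1.99 in FP3, 45.0 ± 3.55 in SP3, 36.2 ± 2.45 in FP4 and 48.8 ± 0.974 in SP4 (SD, n = 3 each). ARF6 (LOC_Os02g06910, chromosome 2) came next, with 21.4 FPKM in FP3 to 40.5 FPKM in FP2. In FP2 the ranges of ARF17 and ARF6 overlapped, so their order was not resolved there. ARF12 (LOC_Os04g57610, chromosome 4) and ARF25 (LOC_Os12g41950, chromosome 12) followed. Their ranges overlapped in FP3, SP3 and FP4, and ARF12 also overlapped with ARF6 in FP3 and SP3 and with ARF17 in SP3. In SP4 ARF12 stood above ARF25 in FPKM and below it in CPM per kilobase.

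ARF10 (LOC_Os04g43910, chromosome 4) was the least abundant member in all 6 groups, at 0.386 ± 0.10 FPKM in SP3 to 2.54 ± 0.324 FPKM in FP4 (SD, n = 3 each). The other miR160 targets, ARF8 (LOC_Os02g41800, chromosome 2), ARF18 (LOC_Os06g47150, chromosome 6) and ARF22 (LOC_Os10g33940, chromosome 10), lay between 3.93 and 10.1 FPKM. Their order changed by stage. ARF8 stood above ARF18 and ARF22 in FP2 and last of these genes in FP4 and SP4. In CPM per kilobase ARF22 was the last of them in FP4 and SP4, so the order there depends on the measure. The FPKM ranges of ARF8 and ARF18 overlapped in SP2 and SP3, those of ARF18 and ARF22 in SP2, FP4 and SP4, and those of ARF8 and ARF22 in FP3, SP2 and SP3.

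**Figure D1:**
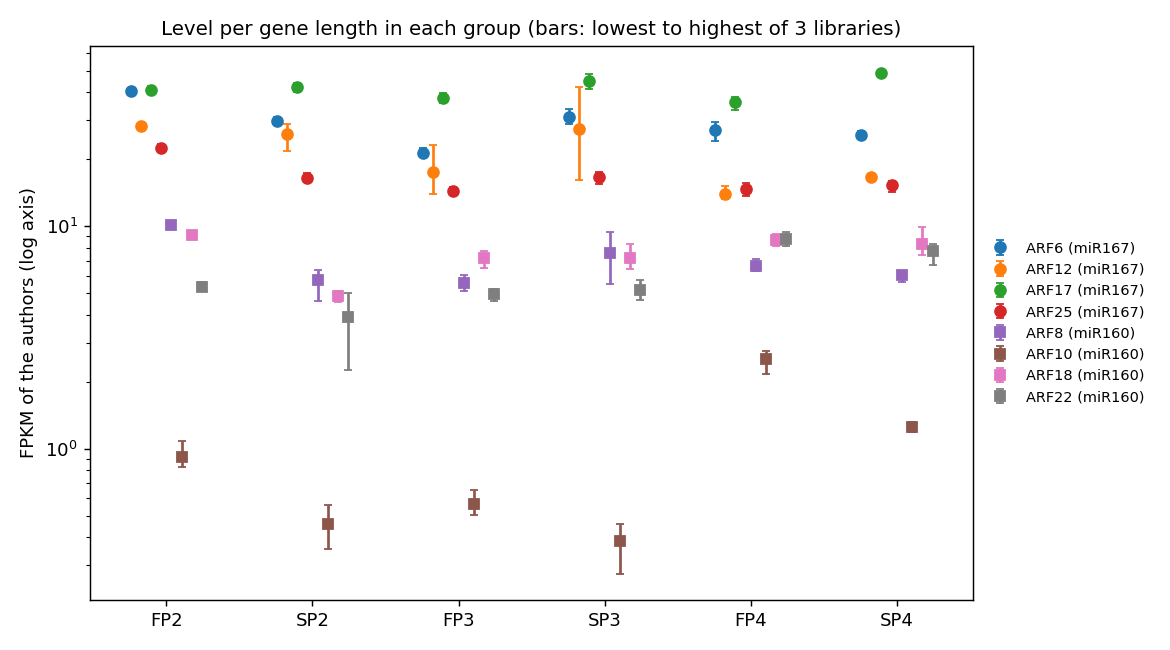
Mean FPKM of the 8 ARFs (log axis) in each group, with bars from the lowest to the highest of 3 libraries. Circles are miR167 targets and squares miR160 targets. ARF10 lies lowest in all groups, between 0.386 and 2.54 FPKM, and the mean of ARF17 is the highest, its bar overlapping that of ARF6 in FP2 and that of ARF12 in SP3.

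At P2, when pollen mother cells formed, fertile panicles held more transcript of 5 of the 8 ARFs than sterile panicles. These were ARF6 and ARF25 of the miR167 targets and ARF8, ARF10 and ARF18 of the miR160 targets. None was lower. By edgeR's quasi-likelihood test, 40.8% of all genes tested were called at this stage at a Benjamini-Hochberg adjusted p below 0.05. Of all genes tested, 21.3% were called higher and 19.5% lower. The median log2 fold change over the 8 ARFs was 0.51, against 0.04 over all genes tested.

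The largest P2 differences were among the miR160 targets. ARF18, a repressor-type ARF, was measured at 44.9, 45.7 and 45.4 CPM in FP2, against 23.3, 23.1 and 23.9 CPM in SP2. The groups lay far apart and the log2 fold change was 0.97 ± 0.07 (SE, adjusted p = 0.000192). ARF8 had 38.0, 38.5 and 39.1 CPM in FP2, against 18.04, 22.5 and 22.6 CPM in SP2, a log2 fold change of 0.88 ± 0.11 (adjusted p = 0.00135). ARF10 had 3.33, 4.36 and 3.49 CPM in FP2, against 1.64, 1.75 and 2.12 CPM in SP2. The lowest FP2 library was still above the highest SP2 library, and the log2 fold change was 1.03 ± 0.21 (adjusted p = 0.00928). It rests on low counts, 152 to 176 in FP2 and 68 to 104 in SP2.

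ARF22 was the exception among the miR160 targets. It had 29.4, 27.1 and 27.5 CPM in FP2, against 26.1, 10.4 and 21.9 CPM in SP2. The groups did not overlap, but SP2 replicate 2 was at 495 counts where the other SP2 libraries had 1085 and 1075. The log2 fold change of 0.54 ± 0.32 did not pass the test (adjusted p = 0.224), and without that library it was 0.23 (adjusted p = 0.205).

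Among the miR167 targets, ARF6 had 248, 247 and 247 CPM in FP2, against 195, 167 and 169 CPM in SP2, and its log2 fold change was 0.49 ± 0.08 (adjusted p = 0.00399). ARF25 had 155, 155 and 150 CPM in FP2, against 112, 107 and 112 CPM in SP2, and its log2 fold change was 0.49 ± 0.06 (adjusted p = 0.00108). For both genes every fertile library was above every sterile one. ARF12 averaged 199 ± 2.42 CPM in FP2 and 178 ± 17.1 CPM in SP2 (SD, n = 3 each), and the log2 fold change of 0.17 ± 0.08 did not pass the test (adjusted p = 0.134). ARF17, the most abundant member, averaged 242 ± 7.21 CPM in FP2 and 241 ± 5.80 CPM in SP2. Its groups overlapped, with a log2 fold change of 0.02 ± 0.06 (adjusted p = 0.793). At P2 the summed floral organ markers were at 521.3 to 531.8 CPM in FP2, against 661.7 to 849.7 CPM in SP2, with 1 called higher and 5 lower of 10. The 7 meiocyte markers, which act in pollen mother cells, summed to 215.8 to 220.7 CPM in FP2, against 269.1 to 292.1 CPM in SP2. That sum followed MEL1 (113 CPM in FP2, 216 CPM in SP2), the single one called lower, while 3 were higher and the median log2 fold change was 0.11. The leaf photosynthesis markers summed to 98.87 to 102.4 CPM in FP2, against 111.2 to 148.3 CPM in SP2 (3 of 7 lower, median -0.91). The tapetum markers summed to 13.62 to 19.47 CPM in FP2, against 22.2 to 26.53 CPM in SP2. Of 7 tapetum markers tested, 2 were called lower and 0 higher. The 2 were TIP2 (3.86 CPM in FP2, 10.4 CPM in SP2) and TDR (1.10 CPM in FP2, 2.51 CPM in SP2). Over all genes tested at P2, 21.3% were called higher and 19.5% lower. The part of these lists in the P2 differences was not tested. The same 5 genes stayed called when any 1 of the 6 libraries was left out.

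**Figure D2:**
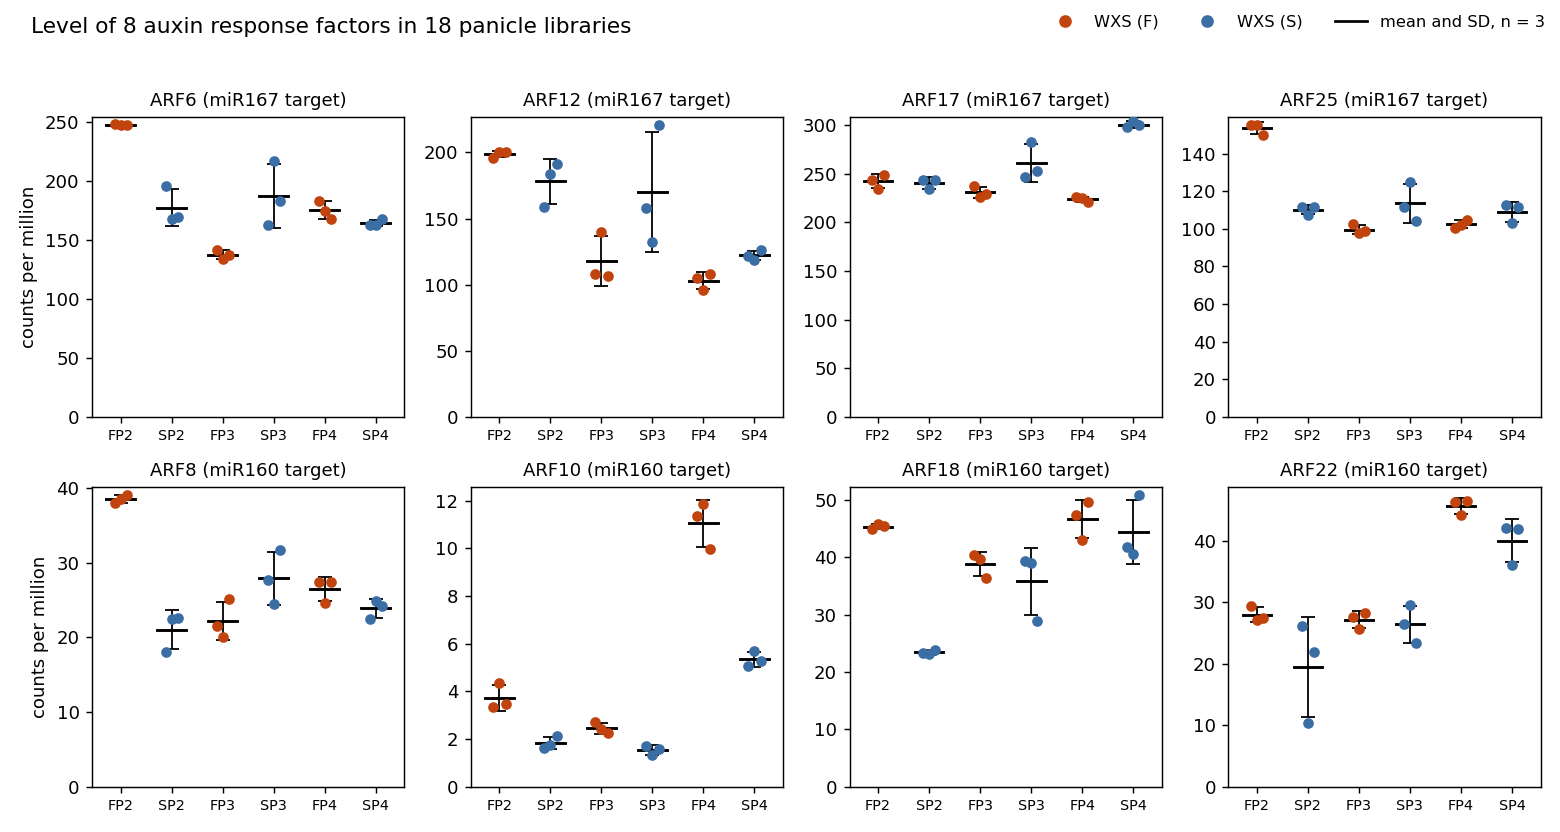
CPM of each ARF in each library (points, F in red and S in blue), with the group mean and SD (n = 3). At P2 the FP2 points of ARF6, ARF25, ARF8, ARF10 and ARF18 lie above all SP2 points, while ARF10 climbs to 9.96 to 11.8 CPM in FP4, against 5.08 to 5.68 CPM in SP4.

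At P3, during meiosis, the pattern of P2 was not found. ARF6 was lower in fertile panicles and ARF10 higher, 2 of 8 genes, where 42.8% of all genes tested were called, 23.7% higher and 19.1% lower. The median log2 fold change of the 8 ARFs was -0.19, against 0.04 over all genes. ARF6 had 141, 134 and 137 CPM in FP3, against 162, 216 and 183 CPM in SP3. The fertile libraries were close together and all below the spread-out sterile ones, with a log2 fold change of -0.45 ± 0.12 (adjusted p = 0.0207). ARF10 had 2.70, 2.43 and 2.24 CPM in FP3, against 1.72, 1.34 and 1.58 CPM in SP3, and its log2 fold change was 0.66 ± 0.22 (adjusted p = 0.0469).

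The other 6 genes did not pass the test at P3. ARF12 had 108, 140 and 106 CPM in FP3, against 158, 132 and 221 CPM in SP3. It was the most variable member in SP3, its groups overlapped, and the log2 fold change was -0.53 ± 0.21 (adjusted p = 0.0801). ARF8 averaged 22.2 ± 2.56 CPM in FP3 and 27.9 ± 3.56 CPM in SP3 (log2 fold change -0.33 ± 0.14, adjusted p = 0.0982). ARF17 was at 231 ± 5.88 CPM in FP3 and 261 ± 19.4 CPM in SP3, and ARF25 at 99.6 ± 2.41 CPM in FP3 and 114 ± 10.5 CPM in SP3. Their log2 fold changes were -0.18 and -0.19, with adjusted p of 0.13 and 0.124. ARF18 and ARF22 had log2 fold changes of 0.11 and 0.04 with overlapping groups. The P3 calls depend on single libraries. Without SP3 replicate 2, ARF6, ARF12, ARF17, ARF25 and ARF8 were called lower and ARF10 was no longer called (adjusted p = 0.101), whereas without FP3 replicate 1, 2 or 3 in turn no member was called, with an adjusted p for ARF6 of 0.0732, 0.0518 and 0.0837. ARF10 lost its call in all 6 such settings (adjusted p 0.0578 to 0.145), and ARF25 was called lower without SP3 replicate 3 (adjusted p = 0.0286). In 1 fit of all 18 libraries, 5 were lower and ARF10 higher. The summed floral organ markers stood at 601.8 to 611.4 CPM in FP3, against 1076 to 1327 CPM in SP3, and the meiocyte markers at 158.8 to 194.5 CPM in FP3, against 348.7 to 366.8 CPM in SP3. The tapetum sums were near each other, 135 to 150.9 CPM in FP3 and 124.9 to 135 CPM in SP3, but 4 of the 9 genes were higher and 3 lower, among them C6 at 33.7 CPM in FP3 and 1.15 CPM in SP3 and TIP2 at 12.1 CPM in FP3 and 45.4 CPM in SP3. The part of these markers in the P3 values was not tested.

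At P4, when microspores formed, ARF10 was higher and ARF12 and ARF17 were lower in fertile panicles, 3 of 8 genes beside 52.6% of all genes tested (28.2% higher, 24.4% lower). The median over the 8 ARFs was 0.09, against 0.00342 over all genes. ARF10 had 11.4, 11.8 and 9.96 CPM in FP4, against 5.08, 5.68 and 5.27 CPM in SP4. The groups were well apart, with a log2 fold change of 1.06 ± 0.12 (adjusted p = 0.000425). ARF17 had 226, 225 and 221 CPM in FP4, against 298, 304 and 300 CPM in SP4, with a log2 fold change of -0.42 ± 0.03 (adjusted p = 8.85e-05). This was the smallest adjusted p of any member in the comparisons of F with S within a stage, at a ratio of 0.749, with SDs of 2.73 CPM in FP4 and 3.29 CPM in SP4. ARF12 had 105, 96.1 and 108 CPM in FP4, against 121, 119 and 126 CPM in SP4, a log2 fold change of -0.23 ± 0.05 (adjusted p = 0.0105). In 1 fit of all 18 libraries ARF12 was not called (adjusted p = 0.207).

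The rest stayed within or close to the replicate spread at P4. ARF6 averaged 175 ± 7.62 CPM in FP4 and 164 ± 2.95 CPM in SP4 (log2 fold change 0.10, adjusted p = 0.103). ARF22 averaged 45.7 ± 1.26 CPM in FP4 and 40.1 ± 3.48 CPM in SP4, with groups that did not overlap and an adjusted p of 0.0614. ARF25, ARF8 and ARF18 overlapped between the groups, with log2 fold changes of -0.08, 0.16 and 0.08. ARF25 was called lower without SP4 replicate 2 (adjusted p = 0.0353), and ARF6 higher without FP4 replicate 3 (adjusted p = 0.0429). The P4 panicles differed in their markers as well. Besides the tapetum genes given above, the meiocyte markers summed to 60.58 to 78.25 CPM in FP4, against 206.2 to 251.2 CPM in SP4, and the leaf photosynthesis markers to 1057 to 1186 CPM in FP4, against 601.9 to 659.8 CPM in SP4. Their part in the P4 differences was not tested.

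**Figure D3:**
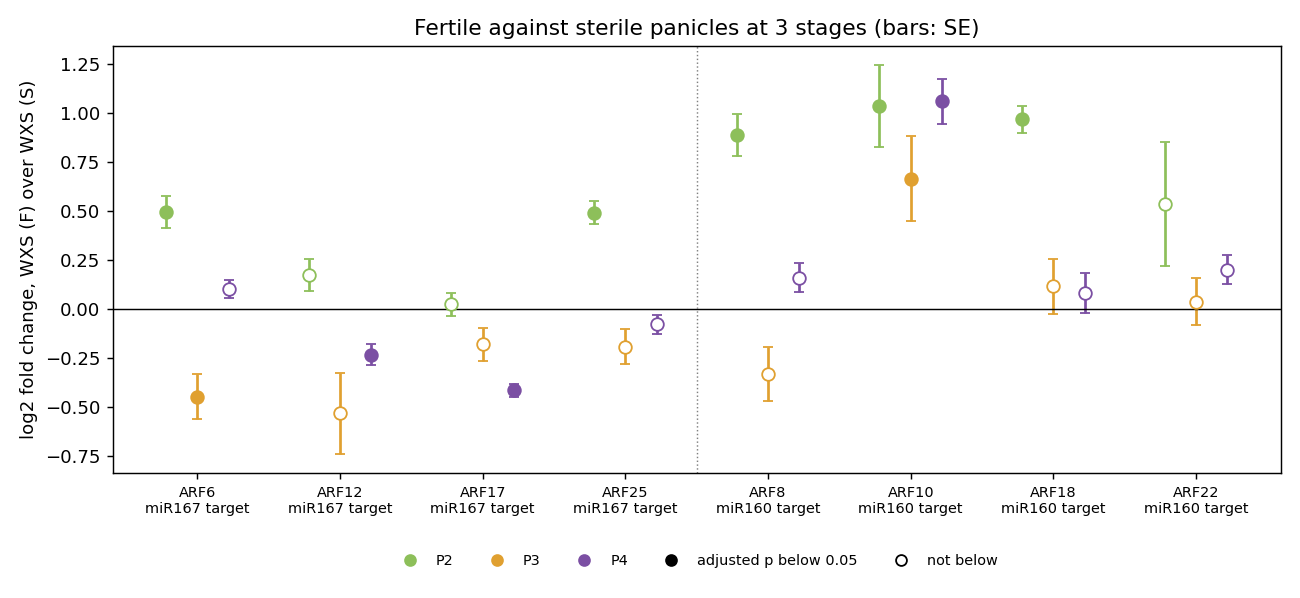
Log2 fold change of WXS (F) over WXS (S) for each ARF at P2, P3 and P4, with SE bars, filled where the adjusted p was below 0.05. ARF10 is filled and above 0 at all 3 stages (1.03, 0.66 and 1.06), while ARF6 is at 0.49 at P2 and -0.45 at P3.

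Over the 3 stages the 8 ARFs gave 24 comparisons of F with S. The miR160 targets had 5 calls in 12, all higher in fertile panicles, and the miR167 targets 2 higher and 3 lower in 12. At the 3 stages 40.8%, 42.8% and 52.6% of all genes were called, so 5 in 12 for each set is near the share over all genes, and 3 of the 5 calls of the miR160 targets were of ARF10. ARF10 was the only member called at every stage, although its P3 call was lost when any 1 library was left out, and ARF22 was the only one called at none. In a fit of all 18 libraries with stage as a term, where 46.2% of genes were called (24.8% higher, 21.4% lower), ARF10 and ARF18 were higher in F by log2 fold changes of 0.91 ± 0.11 (adjusted p = 3.26e-06) and 0.38 ± 0.12 (adjusted p = 0.0152). ARF17 was lower, at -0.20 ± 0.06 (adjusted p = 0.0102). This is an average over stages with unlike differences. ARF18 was at 0.97, 0.11 and 0.08 at P2, P3 and P4, and ARF17 at 0.02, -0.18 and -0.42. All 3 calls held without SP3 replicate 2, and this fit uses the same libraries as the comparisons within stages. ARF6, ARF12, ARF25, ARF8 and ARF22 were not called, with adjusted p from 0.13 to 0.772.

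Summed over 4 genes, the miR167 targets stood at 842 ± 4.46 CPM in FP2 and 706 ± 12.3 CPM in SP2, at 586 ± 13.6 CPM in FP3 and 732 ± 45.9 CPM in SP3, and at 604 ± 9.02 CPM in FP4 and 696 ± 8.43 CPM in SP4 (SD, n = 3 each). The fertile sum was above the sterile one at P2 and below it at P3 and P4, with no overlap of libraries at any stage. The sum of the miR160 targets was 116 ± 0.152 CPM in FP2 and 65.8 ± 6.99 CPM in SP2, 90.7 ± 2.45 CPM in FP3 and 91.7 ± 5.29 CPM in SP3, and 130 ± 5.35 CPM in FP4 and 114 ± 7.84 CPM in SP4. It was apart at P2 and P4, narrowly at P4 (lowest FP4 library 123.7, highest SP4 library 122.3 CPM), and overlapped at P3. No test was run on the sums.

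The stages were then compared within each condition. These comparisons share libraries with each other and with those above. Cell type markers changed at the same steps. In fertile panicles between P2 and P3, 7 of 9 tapetum markers (median log2 fold change 3.41) and 5 of 7 leaf photosynthesis markers (0.84) were higher in FP3, and between P3 and P4, 7 of 9 tapetum markers (1.77), 9 of 10 floral organ markers (0.91) and 7 of 7 leaf markers (2.55) were higher in FP4. In sterile panicles 5 of 8 tapetum markers tested (2.30), 6 of 10 floral organ markers (0.84) and 3 of 7 leaf markers (0.75) were higher in SP3 than in SP2, and 7 of 7 leaf markers (1.37) were higher in SP4 than in SP3. Other lists moved less. In SP4 against SP3, 3 of 9 tapetum markers (0.65) and 1 of 10 floral organ markers (-0.08) were higher and 0 lower. In FP3 against FP2, 4 of 10 floral organ markers were higher and 1 lower (0.19). The meiocyte markers went the other way between FP3 and FP4, with 0 higher and 4 lower of 7 in FP4 (-1.08). In FP3 against FP2 and in SP4 against SP3, 1 was higher and 2 were lower. In SP3 against SP2, 2 were higher and 0 lower. Of all genes tested, 27.1% were called higher in FP3 than in FP2 and 26.4% in FP4 than in FP3. In sterile panicles these shares were 6.03% (SP3 over SP2) and 21.5% (SP4 over SP3). The shares called lower at the same steps were 26% and 24.6% in fertile panicles, and 6.02% and 18.5% in sterile panicles. The part of these lists in the stage differences of the ARFs was not tested.

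In fertile panicles, 7 of the 8 ARFs fell between P2 and P3, where 53.2% of all genes were called (27.1% higher, 26% lower). The median log2 fold change was -0.67 over the 8 ARFs and -0.0019 over all genes tested. ARF6 fell most, to 137 ± 3.61 CPM in FP3, against 247 ± 0.788 CPM in FP2 (log2 fold change -0.91 ± 0.03, adjusted p = 4.48e-06). ARF8 was at 22.2 ± 2.56 CPM in FP3 and 38.5 ± 0.549 CPM in FP2 (-0.86 ± 0.09, adjusted p = 0.000374). ARF12 was at 118 ± 18.7 CPM in FP3 and 199 ± 2.42 CPM in FP2 (-0.81 ± 0.11, adjusted p = 0.00103). The fitted ratios of FP3 to FP2 were 0.532, 0.553 and 0.569 in these 3 genes, and their libraries did not overlap.

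ARF25 and ARF10 changed by -0.69 ± 0.03 (adjusted p = 1.54e-05) and -0.66 ± 0.17 (adjusted p = 0.017). ARF18 had the smaller log2 fold change of -0.29 ± 0.05 (adjusted p = 0.00462), and ARF17 that of -0.13 ± 0.04 (adjusted p = 0.0202) with overlapping groups. ARF22 stayed at 27.2 ± 1.42 CPM in FP3 and 28.01 ± 1.24 CPM in FP2 (-0.11, adjusted p = 0.223). The calls of ARF17 and ARF10 were the weakest of the 7. ARF17 was lost without FP2 replicate 3, FP3 replicate 2 or FP3 replicate 3 (adjusted p = 0.0572, 0.114 and 0.0746), and ARF10 without FP3 replicate 2 or 3 (adjusted p = 0.0557 and 0.0564). In 1 fit of all 18 libraries, ARF17 and ARF18 were not called (adjusted p = 0.339 and 0.123).

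In sterile panicles ARF18 alone of the 8 ARFs rose at the same step, where 12% of all genes were called (6.03% higher, 6.02% lower). That share rests on 2824 genes, a number that was 1436 to 2287 with 1 library left out, lowest without SP3 replicate 1, and 6632 in 1 fit of all 18 libraries. It had 39.3, 39.0 and 29.0 CPM in SP3, against 23.3, 23.1 and 23.9 CPM in SP2, a log2 fold change of 0.62 ± 0.15 (adjusted p = 0.0376). The call was lost when SP2 replicate 1, 2 or 3 or SP3 replicate 1 or 2 was left out (adjusted p = 0.0961, 0.123, 0.112, 0.113 and 0.0827) and held without SP3 replicate 3. ARF8 averaged 27.9 ± 3.56 CPM in SP3 and 21.0 ± 2.60 CPM in SP2 without passing the test (0.42 ± 0.15, adjusted p = 0.139). The others had log2 fold changes between -0.23 for ARF10 and 0.45 for ARF22, and adjusted p from 0.446 to 0.916.

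Whether the step from P2 to P3 differed between the conditions was tested as an interaction over all 18 libraries, in which 27.2% of all genes were called, 14.9% higher and 12.4% lower. For 5 of the 8 ARFs the change was more negative in fertile panicles. The difference of the log2 changes, F minus S, was -1.20 ± 0.16 for ARF8 (adjusted p = 4.09e-05), -0.93 ± 0.12 for ARF6 (adjusted p = 3.96e-05), -0.84 ± 0.16 for ARF18 (adjusted p = 0.000902), -0.69 ± 0.21 for ARF12 (adjusted p = 0.0228) and -0.67 ± 0.09 for ARF25 (adjusted p = 3.86e-05). ARF17, ARF10 and ARF22 were at -0.19, -0.35 and -0.48, with adjusted p of 0.0857, 0.291 and 0.282. The median was -0.68 over the 8 ARFs and 0.01 over all genes. The 5 calls held without SP3 replicate 2. ARF12 was not called without SP2 replicate 1, FP3 replicate 1 or FP3 replicate 3 (adjusted p = 0.0526, 0.0579 and 0.0593), and ARF17 was called without FP2 replicate 1, SP3 replicate 1 or FP3 replicate 2 (adjusted p = 0.0139, 0.0395 and 0.0172) and with DESeq2-type size factors, without scaling, without genes over 1% of a library and with DESeq2 (adjusted p = 0.0359, 0.0121, 0.0194 and 0.00517).

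Between P3 and P4, 4 of the 8 ARFs rose in fertile panicles and none fell, beside 51% of all genes (26.4% higher, 24.6% lower). ARF10 rose 4.58-fold, to 11.1 ± 0.980 CPM in FP4, against 2.46 ± 0.229 CPM in FP3 (log2 fold change 2.20 ± 0.13, adjusted p = 2.83e-05). This was the largest change of any member in any comparison of 2 groups made here. ARF22 rose to 45.7 ± 1.26 CPM in FP4, against 27.2 ± 1.42 CPM in FP3 (0.78 ± 0.06, adjusted p = 8.36e-05). ARF6 and ARF18 rose by 0.38 ± 0.04 (adjusted p = 0.000485) and 0.29 ± 0.07 (adjusted p = 0.0142), and ARF18 was not called in 1 fit of all 18 libraries (adjusted p = 0.0736). ARF12, ARF17, ARF25 and ARF8 did not pass the test, ARF8 with an adjusted p of 0.0545, which became 0.0157 without FP3 replicate 3.

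In sterile panicles ARF10 and ARF22 also rose from meiosis to the microspore stage, 2 of 8 genes beside 40.1% of all genes (21.5% higher, 18.5% lower). ARF10 was at 5.34 ± 0.309 CPM in SP4 and 1.54 ± 0.195 CPM in SP3 (1.78 ± 0.20, adjusted p = 0.000933). ARF22 was at 40.1 ± 3.48 CPM in SP4 and 26.4 ± 3.05 CPM in SP3 (0.60 ± 0.12, adjusted p = 0.0102). The other 6 genes did not pass the test, among them ARF12 at 122 ± 3.62 CPM in SP4 and 170 ± 45.5 CPM in SP3 (-0.48 ± 0.18, adjusted p = 0.0757) and ARF17 at 301 ± 3.29 CPM in SP4 and 261 ± 19.4 CPM in SP3 (0.20 ± 0.09, adjusted p = 0.104). Without SP3 replicate 2 the calls numbered 5, with ARF17 higher (adjusted p = 0.0278) and ARF12 and ARF8 lower (adjusted p = 0.0106 and 0.027). Without SP3 replicate 1, ARF6 was called lower (adjusted p = 0.0452).

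**Figure D4:**
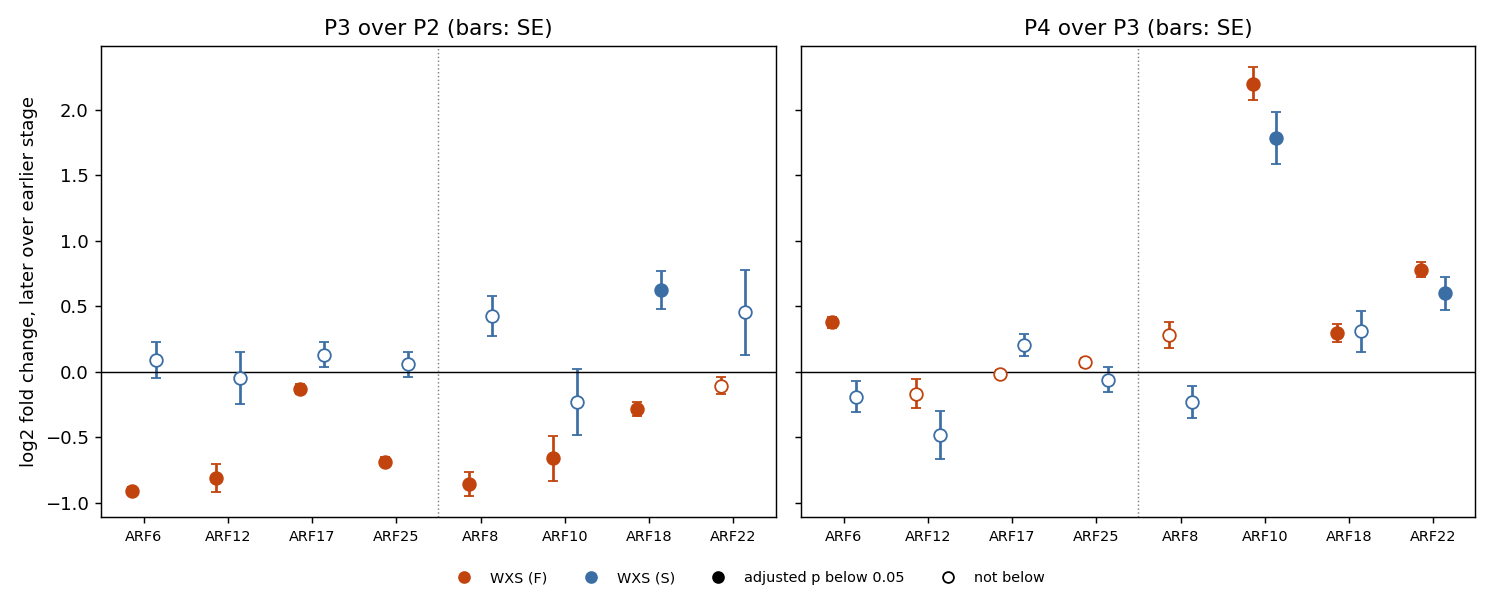
Log2 fold change of the later over the earlier stage for each ARF, P3 over P2 (left) and P4 over P3 (right), in WXS (F) (red) and WXS (S) (blue), with SE bars, filled where the adjusted p was below 0.05. On the left the red points of 7 genes are filled and below 0, from -0.13 to -0.91, while the one filled blue point is ARF18 at 0.62. On the right ARF10 lies highest, at 2.20 in F and 1.78 in S.

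The step from P3 to P4 differed between the conditions for 3 of the 8 ARFs, beside 18.5% of all genes (6.74% higher, 11.7% lower). The difference of log2 changes, F minus S, was 0.54 ± 0.12 for ARF6 (adjusted p = 0.00624), 0.48 ± 0.16 for ARF8 (adjusted p = 0.0469) and -0.25 ± 0.08 for ARF17 (adjusted p = 0.0328). ARF6 kept its call whichever library was left out. ARF17 lost it in 12 of the 18 such fits (largest adjusted p = 0.151) and ARF8 in 11 (largest adjusted p = 0.108), the call of ARF17 holding without SP2 replicate 1, 2 or 3, FP2 replicate 2 or 3, or SP3 replicate 2, and that of ARF8 without SP2 replicate 1, 2 or 3, FP2 replicate 1, SP3 replicate 2, FP3 replicate 3 or FP4 replicate 2. ARF17 was also not called with DESeq2-type size factors, without scaling, without the filter and without genes over 1% of a library (adjusted p = 0.103, 0.0545, 0.195 and 0.0684), nor ARF8 without scaling and without the filter (adjusted p = 0.128 and 0.0627). For ARF10, which rose in both conditions, the difference was 0.38 ± 0.23 and did not pass the test (adjusted p = 0.266), and for ARF22 it was 0.15 ± 0.31 (adjusted p = 0.793).

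Across the 6 groups ARF10 had the widest span of means, 7.16-fold between FP4 at 11.1 CPM and SP3 at 1.54 CPM. ARF22 followed with 2.35-fold, between FP4 and SP2, and the range of the others ran down to 1.34-fold for ARF17, between SP4 and FP4. Over the 18 libraries the log2 CPM of ARF6 and ARF25 moved together most closely (Pearson r = 0.892), and ARF8, a miR160 target, moved with both of them (r = 0.711 with ARF6 and 0.73 with ARF25). ARF10, ARF18 and ARF22 formed the other set, with r of 0.66 to 0.75 among them. ARF17 had r between -0.0946 and 0.197 with every other member. With the other miR160 targets ARF8 had lower r, of 0.183 with ARF10, 0.085 with ARF22 and 0.452 with ARF18. These r are descriptions over 18 libraries of 6 groups, and the points share groups and scaling.

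The genes most like each set were ranked in the same way among 20982 other genes, by r with the mean standardised level of its 4 genes. For the miR167 targets they were LOC_Os09g26760 (r = 0.96), LOC_Os08g01680 (r = 0.959) and LOC_Os05g07030 (r = 0.954). LOC_Os08g01680 had 21.97 ± 0.362 CPM in FP2 and 8.71 ± 0.0677 CPM in SP2, and 4.21 ± 0.507 CPM in FP3 and 8.49 ± 1.42 CPM in SP3. From P2 to P3 it turned from higher to lower in F, as ARF6 did. At P4 it stayed lower in F, with 4.83 ± 0.395 CPM in FP4 and 8.55 ± 0.657 CPM in SP4. ARF6 was then at 175 CPM in FP4 and 164 CPM in SP4. For the miR160 targets they were LOC_Os07g38730 (r = 0.953), LOC_Os10g36880 (r = 0.949) and LOC_Os12g28110 (r = 0.943). LOC_Os10g36880 had 209 ± 5.23 CPM in FP2 and 98.1 ± 6.04 CPM in SP2, 128 ± 8.49 CPM in FP3 and 149 ± 7.84 CPM in SP3, and 231 ± 1.52 CPM in FP4 and 187 ± 9.53 CPM in SP4. These are the closest of many genes, and the files do not pair these identifiers with names. They follow the mean of a set, not each of its genes. The members' own r with that mean ran from 0.402 (ARF17) to 0.895 (ARF25) for the miR167 targets. For the miR160 targets it ran from 0.551 (ARF8) to 0.916 (ARF18).

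Of the ARFs outside the microRNA sets, the 4 targeted by trans-acting small interfering RNAs (ARF2, ARF3, ARF14 and ARF15) were all higher in F at P2. At P2, 21.3% of all genes tested were called higher. ARF3 had the smallest p of the 4, with 139 CPM in FP2 and 70.6 CPM in SP2 (log2 fold change 0.99 ± 0.07, adjusted p = 0.000206). All 4 fell from P2 to P3 in fertile panicles, with a median of -1.13, where 26% of all genes were called lower. All 4 were also called lower in the P2 to P3 interaction, beside 12.4% of all genes. ARF2 had the smallest p there, at -1.01 ± 0.09 (adjusted p = 7.25e-07). Among the 13 remaining ARFs, of which 12 were tested at P2 and at P3 and 13 at P4, the F against S calls were 2 higher and 3 lower at P2, 1 higher and 7 lower at P3, and 3 higher and 8 lower at P4, beside 40.8%, 42.8% and 52.6% of all genes called. Their medians were 0.07, -0.38 and -0.37. ARF1 was among those lower at P4, with 85.9 CPM in FP4 and 260 CPM in SP4 (-1.59 ± 0.05, adjusted p = 3.21e-06). ARF13 was low, with group means of 0.144 to 1.05 CPM, and of the F against S comparisons it was called at P4, lower in F (-1.54 ± 0.36, adjusted p = 0.0115).

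The regulators and targets of ARFs moved in both directions. Of 30 Aux/IAA genes found in the table, which encode the repressors of activating ARFs, 27 or 28 were tested at each stage. In the P2 comparison 4 were higher and 11 lower in F, where 21.3% of all genes were higher and 19.5% lower. At P3, 9 were higher and 5 lower (23.7% and 19.1% of all genes), and at P4, 13 were higher and 10 lower (28.2% and 24.4% of all genes). IAA9 was at 0.994 CPM in FP2 and 18.5 CPM in SP2 (-4.20 ± 0.19, adjusted p = 4.44e-05). Its direction was the opposite at P3, with 7.30 CPM in FP3 and 1.88 CPM in SP3 (1.96 ± 0.24, adjusted p = 0.00129), and at P4, with 2.57 CPM in FP4 and 1.47 CPM in SP4 (0.81 ± 0.23, adjusted p = 0.0256). IAA18 was at 50.3 CPM in FP4 and 20.1 CPM in SP4 (1.33 ± 0.05, adjusted p = 6.19e-06). Among the auxin receptor genes none was higher in F at any stage, and 2, 1 and 1 of 4 were lower at P2, P3 and P4. Some GH3 genes encode enzymes that attach amino acids to auxin and so take it out of use. Which of the listed GH3 genes act on auxin was not checked here. Of 11 GH3 genes tested, 2 were higher and 3 lower in F at P2, 2 higher and 1 lower at P3, and 3 higher and 3 lower at P4. GH3-1 was higher in F at all 3 stages, by log2 fold changes of 0.79, 1.66 and 1.08 (adjusted p = 0.00653, 0.000295 and 0.0026). GH3-8 was at 8.30 CPM in FP2 and 25.4 CPM in SP2 (-1.60 ± 0.18, adjusted p = 0.000989), at 9.90 CPM in FP3 and 8.68 CPM in SP3 (adjusted p = 0.505), and at 8.40 CPM in FP4 and 22.2 CPM in SP4 (-1.39 ± 0.19, adjusted p = 0.00127). GH3-2 was lower in F at P2 (-2.16 ± 0.33, adjusted p = 0.00306) and P4 (-0.70 ± 0.24, adjusted p = 0.0482) and higher at P3 (1.08 ± 0.30, adjusted p = 0.0275), with its highest group mean at 4.33 CPM in SP2.

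Transcripts of the proteins that make and use microRNAs were also read. Of DCL1, which cuts microRNAs from their precursors, and 4 AGO1 genes, whose products carry them to targets, 1 was higher and 3 lower in F at P2, and 2 and 3 were lower at P3 and P4 with none higher, beside 40.8%, 42.8% and 52.6% of all genes called in either direction. DCL1 was at 90.7 CPM in FP2 and 41.1 CPM in SP2 (1.15 ± 0.20, adjusted p = 0.0056), and AGO1b at 1063 CPM in FP2 and 1497 CPM in SP2 (-0.48 ± 0.06, adjusted p = 0.00159). All 5 fell from P2 to P3 in fertile panicles, the step at which 7 of the 8 ARFs and 26% of all genes fell. The mature microRNAs themselves were not analysed here, so whether miR160 or miR167 moved with any of these ARFs was not tested.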

How the data were processed

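Panicle RNA was freed of ribosomal RNA and made into strand-specific libraries. Clean reads were mapped with HISAT2 to rice genome MSU v7.0 by the authors, and the processing notes also name StringTie 1.3.1. The deposited counts of coding genes are whole numbers per gene and library without normalization. The tool that counted them and its treatment of reads with several positions are not given in the sources used here, so reads of close ARF copies could be shared between them. FPKM values are those deposited by the authors. FPKM over counts per kilobase, divided by the library's median of that ratio, ranged over the 18 libraries from 0.985 to 1.24 for ARF12 and over narrower limits for the others (0.692 to 0.776 for ARF10). The circRNA and lncRNA tables were not used. All columns were matched to a library, and 0 were left unmatched.

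Counts were tested with edgeR 4.0.16 in R 4.3.3 by its quasi-likelihood test, with TMM scaling, genes with at least 10 counts in at least 3 libraries of the fit, and Benjamini-Hochberg adjustment over all genes tested. Each comparison of 2 groups was fitted on its 6 libraries, and the stage term and the interactions on all 18. The SE is the log2 fold change divided by the root of the test's F. CPM are counts per 1000000 of TMM-scaled totals over 18 libraries. Fold changes come from the fits and can differ slightly from ratios of CPM means. The p-values set a difference against the spread between these replicates, estimated with information shared among genes. The plants were of a single summer, so variation between seasons is not covered. Alternatives were DESeq2 1.42.0, other scalings, no filter, the replicate number as a block, the authors' threshold for circRNAs, 1 fit of all libraries, and leaving out each library. Leaving out genes above 1% of a library was added after seeing the data. The procedure was tested on simulated data first. With 200 genes changed, a log2 change of 0.5 was recovered in 0% of them in every comparison of 2 groups. A change of 1 was recovered in 0% (SP3 minus SP2 and SP4 minus SP3) to 46% (FP4 minus SP4), and one of 2 in 64.5% to 77%. Far more genes than 200 were called in the data, so these shares do not carry over directly.

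The 8 ARFs and the lists were chosen with earlier results of these data known. Named in the text are all 8 ARFs, of the other lists a called gene with the smallest p in a direction as well as GH3-8, GH3-2 and ARF13, GH3-1 and the markers MEL1, C6, TDR and TIP2, which were chosen after their values were seen, and the 3 genes most like each set (mean of at least 1 CPM, log2 CPM with a prior count of 2). The files pair no gene names with the identifiers, so member names follow the rule that defined them and list names follow published rice nomenclature. Chromosomes are those in the MSU locus identifiers. Sequences of the genes and microRNAs are not shown here. Depth limits the precision of ARF10 most.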

Additional observations from a re-analysis of the deposited data

Results flagged for a closer look

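The results below were picked out because the change between stages differed between fertile and sterile panicles by a test of the difference itself, the interaction of condition and stage in edgeR's quasi-likelihood fit of 18 libraries. From P2 to P3 the difference of log2 changes, F minus S, was -0.93 for ARF6, -0.69 for ARF12, -0.67 for ARF25, -1.20 for ARF8 and -0.84 for ARF18. In ARF6, ARF12 and ARF25 the fertile panicles changed by -0.91, -0.81 and -0.69, beside 0.09, -0.05 and 0.06 in sterile panicles. In ARF8 and ARF18 the signs of the estimates were opposite, with -0.86 and -0.29 in fertile panicles and 0.42 and 0.62 in sterile panicles. The rise of ARF8 in sterile panicles was not called (adjusted p = 0.139). That of ARF18 lost its call in 5 of 6 fits with 1 library left out. The fall of ARF18 in fertile panicles was not called in 1 fit of all 18 libraries (adjusted p = 0.123).

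From P3 to P4 the difference was 0.54 for ARF6, 0.48 for ARF8 and -0.25 for ARF17. With 1 library left out, ARF6 kept its call in all 18 fits, while ARF17 lost it in 12 and ARF8 in 11. ARF6 changed by 0.38 in fertile and -0.19 in sterile panicles, ARF8 by 0.28 in fertile and -0.23 in sterile panicles, and ARF17 by -0.02 in fertile and 0.20 in sterile panicles. Of these changes only that of ARF6 in fertile panicles was called in its comparison of 2 groups. Both interactions use the FP3 and SP3 libraries, so the values of ARF6 and ARF8 in them are not independent of each other.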

How the results depend on the processing

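The number of the 8 ARFs called was compared with that under each alternative. The authors' threshold is the one their methods section gives for circRNAs, not for coding genes. Their results section states P below 0.05 at the same fold change. With the authors' threshold (adjusted p below 0.01 and a log2 fold change of at least 1 in size) the calls numbered 1 for FP2 minus SP2 (5 in the report), 0 for FP3 minus SP3 (2), 1 for FP4 minus SP4 (3), 0 for FP3 minus FP2 (7), 1 for FP4 minus FP3 (4), 0 for SP3 minus SP2 (1), 1 for SP4 minus SP3 (2), 0 for F minus S over all stages (3), 1 for the P2 to P3 interaction (5) and 0 for the P3 to P4 interaction (3). By its construction this threshold drops log2 changes below 1, which most of these were. FP3 minus SP3 gave 1 call with DESeq2-type size factors, without scaling, without the filter and without genes over 1% of a library, and 6 in 1 fit of all 18 libraries. That fit gave 2 calls for SP3 minus SP2 and 5 for SP4 minus SP3. The P3 to P4 interaction gave 1 call without scaling and 1 without the filter. In FP3 minus SP3, DESeq2 called ARF12 lower (adjusted p = 0.0157) and did not call ARF10 (adjusted p = 0.171). Without scaling, ARF18 in FP4 minus FP3 (adjusted p = 0.12) and ARF17 in F minus S over all stages (adjusted p = 0.0711) were not called. With the replicate number as a block, FP3 minus SP3 gave 0 calls and SP3 minus SP2 gave 0 calls. The cause was not tested. Replicates with the same number did not deviate together (r from -0.135 to 0.033), so the numbers were not taken as pairs. Over single genes the block left 75 of 80 results on their side of the threshold, DESeq2 75 and the absence of a filter 77. The number of all genes called moved by over 1.5 times under the authors' threshold (949 to 4587 genes). For SP3 minus SP2 it was also 964 with the block and 6632 in 1 fit of all 18 libraries, against 2824. It was 6790, 6871 and 6927 without FP3 replicate 1, 2 and 3 for FP3 minus SP3 (10474), 1436, 1491, 1502 and 1520 without SP3 replicate 1, SP2 replicate 2, SP3 replicate 3 and SP2 replicate 3 for SP3 minus SP2, and 6218 without SP4 replicate 3 for SP4 minus SP3 (9494).

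With 1 library left out, the calls ranged from 5 to 5 for FP2 minus SP2, 0 to 5 for FP3 minus SP3, 3 to 4 for FP4 minus SP4, 5 to 7 for FP3 minus FP2, 4 to 5 for FP4 minus FP3, 0 to 1 for SP3 minus SP2, 2 to 5 for SP4 minus SP3, 3 to 3 for F minus S over all stages, 4 to 6 for the P2 to P3 interaction and 1 to 3 for the P3 to P4 interaction.

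The genes that changed sign had not been called and lay near 0. In FP2 minus SP2, ARF17 was at -0.00996 with DESeq2-type size factors, -0.00789 without genes over 1% of a library and -0.00966 with DESeq2, and in FP3 minus SP3 ARF22 was at -0.00505, -0.0289 and -0.00322. In the P3 to P4 interaction ARF18 was at 0.0326, 0.0166 and 0.0328. Without scaling, ARF6 was at -0.0062 and ARF18 at -0.0218 in FP4 minus SP4, ARF25 at -0.0318 in FP4 minus FP3 and ARF12 at 0.0342 in SP3 minus SP2. With 1 library left out, the values that crossed 0 ranged from -0.282 to 0.112 (ARF12), -0.0112 to 0.114 (ARF25) and -0.0192 to 0.206 (ARF6) in SP3 minus SP2, from -0.0159 to 0.0556 for ARF17 in FP2 minus SP2, from -0.0343 to 0.00822 for ARF17 in FP4 minus FP3, from -0.0617 to 0.181 (ARF18) and -0.0874 to 0.052 (ARF22) in FP3 minus SP3, from -0.0053 to 0.107 for ARF6 in F minus S over all stages and from -0.119 to 0.0859 for ARF18 in the P3 to P4 interaction.

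Without scaling the median of all genes shifted to 0.181 in FP2 minus SP2 (0.04 with TMM), -0.102 in FP4 minus SP4 (0.00342), -0.118 in FP4 minus FP3 (-0.02) and -0.178 in the P2 to P3 interaction (0.01). Of all calls 65.2% were then higher in FP2 minus SP2 (52.2% with TMM) and 37.3% in the P2 to P3 interaction (54.6%), and with DESeq2 47% in the P3 to P4 interaction (36.5%). With DESeq2 or no filter the median also covers unfiltered low genes.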
